A study of Mus musculus with 6 samples.

Results

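The 43 genes described here copy DNA or make its building blocks: origin licensing and firing factors, replicative polymerases, the sliding clamp and its loader, single-strand binding proteins, flap processing and ligation enzymes, enzymes of deoxynucleotide synthesis, chromatin assembly factors and S-phase entry regulators. They were chosen as a list of gene symbols by function, and each symbol was matched to 1 line of the deposited count table. All 43 were found among its 38207 genes and loci. The tMCAO group was 3 libraries of brain microglia from wild-type (WT) mice after tMCAO, a name commonly read as transient occlusion of the middle cerebral artery and used as a mouse model of ischemic stroke. The sham group was 3 libraries of brain microglia from WT mice after sham surgery. Each library pooled 30 mice, so a library is an average over animals. Age, sex, the interval between surgery and collection, and the method of cell isolation could not be stated from the sources used here.

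Before a cell divides, the origin recognition complex, Cdc6 and Cdt1 load the Mcm2-7 helicase ring onto DNA, and Cdc45 and the GINS complex turn it into the moving helicase of the fork. Primase and DNA polymerases then copy both strands behind it, held to the template by the Pcna clamp, while ribonucleotide reductase, thymidylate synthase and thymidine kinase supply deoxynucleotides. Many of these genes are known targets of E2F transcription factors and are low in resting cells. Microglia, the resident macrophages of the brain, divide little in the healthy adult brain and are known to proliferate after injury.

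Total counts were 1855495 to 2030550 in tMCAO libraries and 2371235 to 2614512 in sham libraries. Levels are CPM, a gene's counts scaled by the library's total, at which 1 count is 0.492 to 0.539 CPM in tMCAO and 0.382 to 0.422 CPM in sham libraries. A gene was tested where enough libraries had a CPM of about 4.54 (10 counts in the median library), and called where edgeR's quasi-likelihood test gave an adjusted p under 0.05 (Benjamini-Hochberg, over all 13127 genes and loci tested). All adjusted p-values of genes below are from that test. Log2 fold changes are tMCAO over sham, with their standard error (SE), and levels are mean ± SD of 3 libraries a group. The deviations of tMCAO 3 and sham 1 from their group means correlated at 0.254 over 12839 genes, the highest of any tMCAO and sham pair. Deviations are tied to one another within a group, so this value cannot settle whether these libraries departed together. Calls are also given without both, a pair picked from these data. Summed markers of microglia were 34067 ± 1668 CPM in tMCAO and 34125 ± 256 CPM in sham libraries. All 10 of these markers were detected in every library, and P2ry12 and Siglech were called lower.

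Promoter sequences are shown first, because E2F words are the feature most often described in genes of this kind. They were searched after the expression fits. RefSeq windows on GRCm38.p6, 250 bases before to 50 bases after each annotated start, were found for 36 of the 43 genes, in 42 windows. Ccne2, Gins1, Gins2, Mcm4, Pole, Prim2 and Rfc2 had none in the table used. The E2F words searched on both strands were TTTCCCGC, TTTCGCGC, TTTGCCGC and TTTGGCGC. Printed here are the 200 bases before the RefSeq start of 3 genes with such words and of Rrm2, which has none and had the largest fold change of the 43 genes. Capitals mark E2F words, read on either strand.
Mcm5 (chr8:75109309-75109508, plus strand): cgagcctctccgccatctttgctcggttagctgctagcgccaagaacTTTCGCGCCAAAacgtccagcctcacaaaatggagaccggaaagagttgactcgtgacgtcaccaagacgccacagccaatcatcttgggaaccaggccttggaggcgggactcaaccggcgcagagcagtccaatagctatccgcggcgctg
Mcm6 (chr1:128359706-128359905, minus strand): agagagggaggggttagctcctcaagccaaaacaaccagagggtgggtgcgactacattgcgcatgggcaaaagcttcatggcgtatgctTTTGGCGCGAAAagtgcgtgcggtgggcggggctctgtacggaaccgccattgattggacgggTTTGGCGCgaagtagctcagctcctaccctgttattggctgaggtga
Uhrf1, second start (chr17:56304113-56304312, plus strand): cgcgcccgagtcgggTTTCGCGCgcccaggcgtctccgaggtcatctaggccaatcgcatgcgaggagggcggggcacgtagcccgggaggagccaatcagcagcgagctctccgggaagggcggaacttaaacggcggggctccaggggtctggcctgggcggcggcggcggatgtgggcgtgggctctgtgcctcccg
Rrm2 (chr12:24708054-24708253, plus strand): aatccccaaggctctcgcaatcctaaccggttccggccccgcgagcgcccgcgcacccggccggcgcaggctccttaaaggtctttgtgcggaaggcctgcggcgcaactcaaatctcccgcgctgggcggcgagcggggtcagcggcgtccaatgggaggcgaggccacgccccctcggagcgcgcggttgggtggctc
In the Mcm5 window a word on the gene's strand begins at position -153, counted from the RefSeq start as position 0, and a word on the other strand overlaps it from position -149. The Mcm6 window has an overlapping pair from positions -110 and -106 and a further word from position -47. In the Uhrf1 window the word begins at position -185.

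E2F words stood in 12 of the 42 windows (28.6%), in 12 genes: Cdc6, Cdt1, Lig1, Mcm3, Mcm5, Mcm6, Mcm7, Orc1, Pola1, Pold1, Rfc3 and Uhrf1. They stood in 25 of 98 windows (25.5%) of a list of other replication and nucleotide genes, in 744 of 32851 windows (2.26%) of all genes, and in 407 of 11434 windows (3.56%) whose GC content lay in the middle part of the members' range, 53.2% to 67.2%. The words of the cell cycle homology region (CHR), TTTGAA and TTCGAA, which are best known from genes of mitosis, stood in 16.7% of members' windows, in 12.3% of the windows of that GC range and in 19.2% of all windows, so the members lay between these sets. The CCAAT box, read as CCAAT, stood in 59.5% of members' windows, 37.6% of the windows of that GC range and 37.4% of all windows. In 1 of the members' windows, words of different motifs shared a base. A match describes letters in a window and is no evidence of binding, and these shares were not tested.

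**Figure D1:**
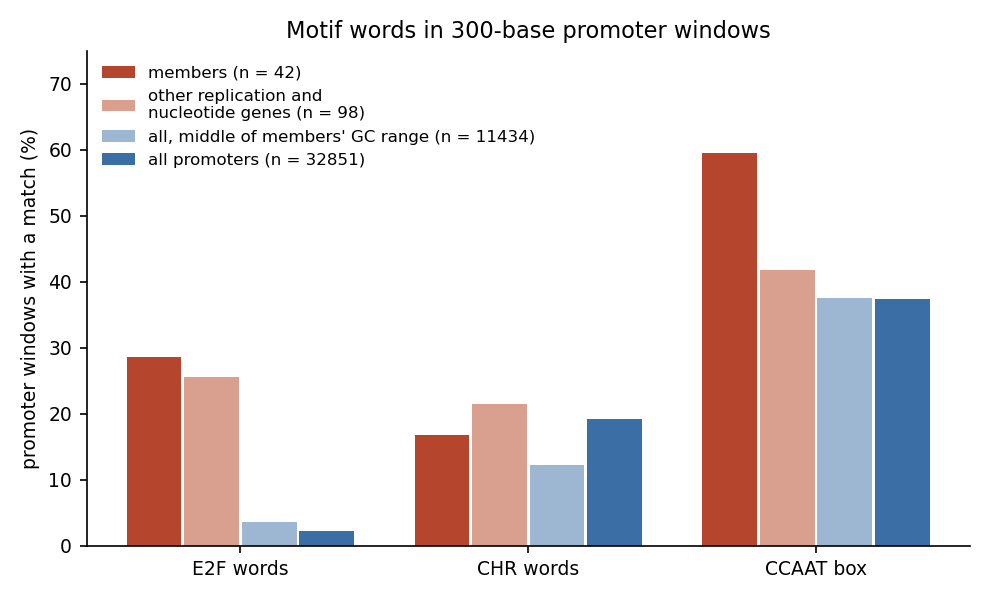
Share of RefSeq promoter windows (vertical axis, percent) that hold a word of each motif on either strand, for the 42 windows of the members, 98 of other replication and nucleotide genes, 11434 of all genes in the middle part of the members' GC range and 32851 of all genes. E2F words stood in 28.6% of members' windows, 3.56% of those in the middle GC range and 2.26% of all windows, and CHR words in 16.7%, 12.3% and 19.2% of the same sets.

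In tMCAO microglia 18 replication and nucleotide genes rose. They were 54.5% of the 33 that were tested, where 9.17% of all tested genes and loci were called higher, and 0 were called lower, where 8.96% were. Of the 8528 tested genes of the annotation alone, 974 were called higher and 488 lower. The other 15 tested genes were not called, and 10 of the 43 genes were not tested. At an unadjusted p under 0.05, 24 of the 33 were higher and 0 lower. The median log2 fold change of the tested members was 1.09, against 0.00 over everything tested and 0.09 over tested genes of the annotation. In RNA of pooled cells, more cells expressing these genes and more RNA per cell cannot be told apart. Leaving out both tMCAO 3 and sham 1, 17 members were called higher and 0 lower, with a median of 1.22.

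The filter bears on these counts, since a gene that is near 0 in sham libraries can be tested only where it is higher in tMCAO. Of the 33 tested members, 14 had fewer than 3 sham libraries over the filter's CPM, and 7 had none. Among the 19 members that were over it in every sham library, 10 (52.6%) were called higher, where 7.63% of all genes selected in the same way were. With no filter, 25 of all 43 members (58.1%) were called higher and 0 lower, where 6.47% of the 31736 genes and loci tested without the filter were called higher. That fit gave much smaller adjusted p-values for some genes, such as Rrm2 at 6.31e-29 against 0.000926 with the filter. For others, such as Rpa2 at 0.206 against 0.191, it did not. Calls and adjusted p-values with no filter are therefore read with more caution than those of the main fit. The lowest tMCAO library lay above the highest sham library for 26 of the 33 tested members, where this held for 23.3% of all tested genes and loci. Over all 43 members, those not tested included, it held for 30 (69.8%). A count was recorded in every library for 37 members. Cdc6, Orc1, Mcm10, Pole, Dut and Ccne1 were those with a library at 0. Of the 12 genes with an E2F word, 7 were tested for expression and all 7 were called higher. Their log2 fold changes ran from 0.89 to 3.28, with a median of 1.27. Pola1 and Rfc3 were among them, with calls that depend on single libraries. The filter left Cdc6, Cdt1, Mcm6, Orc1 and Pold1 untested. With no filter Cdc6, Cdt1 and Mcm6 were called higher, and Orc1 and Pold1 were not called. Of the 24 genes with windows and no such word, 20 were tested and 8 were called higher, with a median of 0.96 and a range of 0.03 to 3.99. With no filter these 8 kept their calls, and Mcm2, Mcm10 and Rrm1 were called higher too. This difference between the windows was not tested, and the share called among all tested genes with such a word was not counted.

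**Figure D2:**
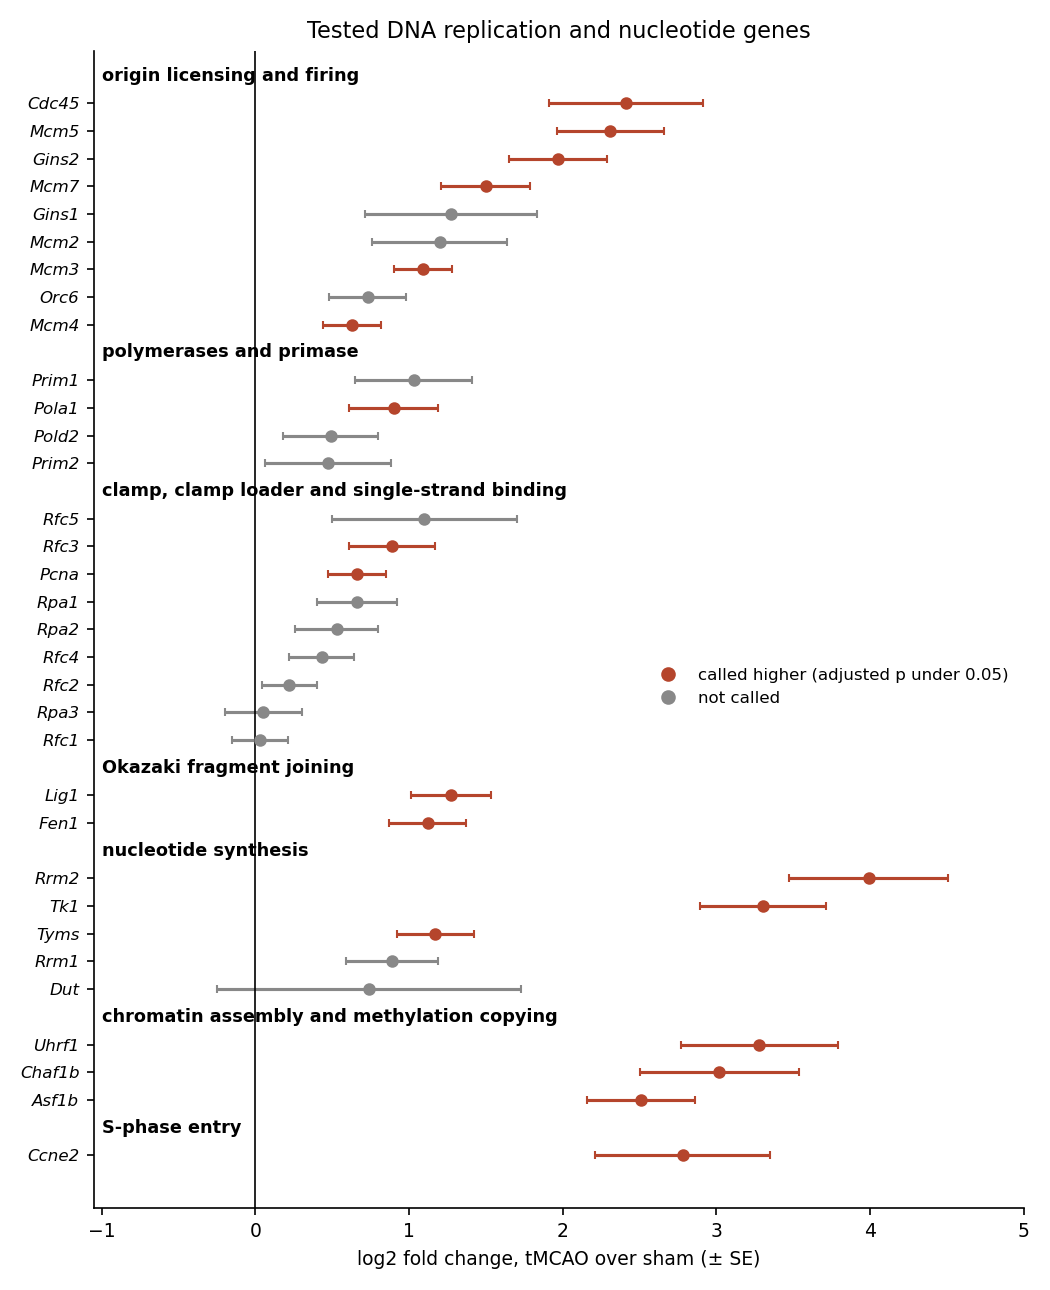
Log2 fold change of the 33 tested members (horizontal axis, tMCAO over sham; bars are SE), grouped by role and ordered by size, with the 18 genes called higher in red and the 15 not called in grey. Values ran up to 3.99 for Rrm2, and Rfc1 and Rpa3 lay near 0.

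Most of the tested origin licensing and firing genes rose. Of 14 such genes, 9 were tested and 6 were called higher, with a median log2 fold change of 1.27, and 12 of the 14 were called with no filter. Their summed level was 359, 262 and 249 CPM in tMCAO libraries 1 to 3 and 124, 111 and 103 CPM in sham libraries 1 to 3, a ratio of 2.58. The 3 tMCAO libraries all lay above the 3 sham libraries, with an exact two-sided permutation p of 0.1, the smallest that 3 against 3 can give. Mcm5, a subunit of the helicase ring, was at 31.5, 16.7 and 23.4 CPM in tMCAO and 4.64, 5.55 and 3.06 CPM in sham libraries. Its log2 fold change was 2.31 ± 0.35 (SE), with an adjusted p of 0.000837. Gins2, a subunit of the GINS complex, was at 30.0, 16.7 and 23.4 CPM in tMCAO and 4.64, 6.34 and 5.35 CPM in sham libraries. For both genes the lowest tMCAO library was at 16.7 CPM and no sham library passed 6.34 CPM. The log2 fold change of Gins2 was 1.97 ± 0.32 (SE), with an adjusted p of 0.00123. Gins2 shares exon sequence with Gse1 on the opposite strand, so its counts may hold reads of that gene.

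Of the other called origin genes, the helicase subunit Mcm7 averaged 34.5 ± 5.51 CPM in tMCAO and 11.2 ± 3.71 CPM in sham libraries, a log2 fold change of 1.5 ± 0.29 (SE) with an adjusted p of 0.00346. Mcm3, another subunit, averaged 74.3 ± 9.96 CPM in tMCAO and 32.1 ± 5.67 CPM in sham libraries, a log2 fold change of 1.09 ± 0.19 (SE) with an adjusted p of 0.00209. Cdc45, which joins the helicase as it is activated, averaged 6.40 ± 0.483 CPM in tMCAO and 1.08 ± 0.524 CPM in sham libraries, a log2 fold change of 2.41 ± 0.50 (SE) with an adjusted p of 0.00582. Its sham level rests on 4, 2 and 2 counts. Mcm4, another subunit of the ring, had the smallest called change of the group, 0.63 ± 0.19 (SE), at an adjusted p of 0.0388. The call of Mcm4 was lost without tMCAO 1, tMCAO 2 or any 1 of the sham libraries, without tMCAO 3 and sham 1 together, with upper-quartile scaling and in DESeq2, and its adjusted p ran from 0.0157 to 0.139 over the alternatives.

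Fitted folds within the ring varied. Mcm2 was at 19.2, 9.16 and 5.86 CPM in tMCAO and 5.90, 4.36 and 3.44 CPM in sham libraries, with overlap between the groups. The log2 fold change of Mcm2 was 1.20 ± 0.44 (SE), at an adjusted p of 0.0772. Without tMCAO 3 it was 1.5 at an adjusted p of 0.0272, and without tMCAO 1 it was 0.63 at 0.371. Mcm6, not tested because it passed the filter's level in too few libraries, had 44, 37 and 3 counts in tMCAO and 3, 9 and 7 counts in sham libraries. Thus Mcm6 was high in tMCAO 1 and 2 only, and tMCAO 3 lay within the sham range, while Mcm3, Mcm5 and Mcm7 were raised in tMCAO 3 too. With no filter the log2 fold change of Mcm6 was 2.43, at an adjusted p of 2.22e-06. That fit gave much smaller adjusted p-values for some genes, so this value is not read as agreement between the tMCAO libraries. The 6 ring genes summed to 263, 193 and 182 CPM in tMCAO and 96.2, 86.8 and 78.0 CPM in sham libraries, a ratio of 2.45.

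Licensing factors were scarcer in counts. Orc6, a subunit of the origin recognition complex, was at 23.1, 17.8 and 20.2 CPM in tMCAO and 11, 10.7 and 12.2 CPM in sham libraries, so the groups did not overlap. Its log2 fold change was 0.73 ± 0.25 (SE), at an adjusted p of 0.0628. Gins1, another GINS subunit, was at 15.3, 11.3 and 7.46 CPM in tMCAO and 9.28, 2.38 and 1.53 CPM in sham libraries. Sham 1 stood within the tMCAO range of Gins1, and the log2 fold change of 1.27 ± 0.56 (SE), at an adjusted p of 0.144, became 2.36 at 0.0154 without it and 0.83 at 0.332 without sham 3. Cdt1, the loader that brings the helicase to origins, had 15, 21 and 2 counts in tMCAO and 2, 3 and 9 counts in sham libraries. Cdc6, its partner in loading, had 13, 8 and 5 counts in tMCAO and 0, 4 and 3 counts in sham libraries. With no filter both were called higher, Cdt1 at an adjusted p of 0.0138 and Cdc6 at 0.017, although tMCAO 3 lay within the sham range for Cdt1. Mcm10, which helps the helicase to start, had 11, 3 and 7 counts in tMCAO and 1, 1 and 0 counts in sham libraries, a ratio of 13.7 with an exact 95% counting interval of 3.34 to 120. With no filter Mcm10 was called higher, at an adjusted p of 0.00268. Orc1, the largest subunit of the recognition complex, had 2, 1 and 3 counts in tMCAO and 0, 1 and 0 counts in sham libraries, too few to be called (adjusted p 0.291 with no filter).

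Of the polymerase and primase genes only Pola1 was called. Of 6 genes, 4 were tested and 1 was called higher, with a median log2 fold change of 0.70. Pola1, the catalytic subunit of polymerase alpha, was at 15.3, 16.7 and 12.8 CPM in tMCAO and 6.75, 7.53 and 7.65 CPM in sham libraries. All tMCAO libraries were above all sham libraries, and the log2 fold change was 0.90 ± 0.29 (SE), at an adjusted p of 0.0458. That call was lost without any 1 of tMCAO 1, tMCAO 2 and the sham libraries, without tMCAO 3 and sham 1 together, with upper-quartile scaling and in DESeq2, with adjusted p-values between 0.0322 and 0.168 over the alternatives. Prim1, the catalytic primase subunit, was at 10.8, 10.8 and 5.33 CPM in tMCAO and 4.22, 3.96 and 3.82 CPM in sham libraries. It had a log2 fold change of 1.03 ± 0.38 (SE) at an adjusted p of 0.0772, which ran from 0.0324, without tMCAO 3, to 0.244 over the alternatives. Prim2, the other primase subunit, was at 10.8, 6.47 and 6.39 CPM in tMCAO and 6.75, 5.95 and 3.06 CPM in sham libraries. The groups overlapped for Prim2, whose log2 fold change of 0.47 ± 0.41 (SE) had an adjusted p of 0.458.

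Pold2, an accessory subunit of polymerase delta, was at 20.2, 13.5 and 14.9 CPM in tMCAO and 11, 13.1 and 7.65 CPM in sham libraries. Pold2 had a log2 fold change of 0.49 ± 0.31 (SE) at an adjusted p of 0.292. Pold1, the catalytic subunit of the same enzyme, was not tested and had 19, 14 and 2 counts in tMCAO and 7, 10 and 2 counts in sham libraries. As with Mcm6, tMCAO 3 lay within the sham range for Pold1. Pole, the catalytic subunit of polymerase epsilon, had 7, 2 and 0 counts in tMCAO and 0, 2 and 1 counts in sham libraries, a ratio of 3.91 whose exact 95% counting interval, 0.975 to 22.4, includes no difference. Over the 6 genes the summed level was 69.9, 56.0 and 40.5 CPM in tMCAO and 31.6, 35.3 and 23.3 CPM in sham libraries, a ratio of 1.84.

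The clamp, its loader and the single-strand binding proteins had the lowest median of the roles. All 9 genes were tested and 2 were called higher, with a median log2 fold change of 0.53, and their summed level was 387, 338 and 393 CPM in tMCAO and 290.1, 269 and 258 CPM in sham libraries, a ratio of 1.37. Pcna, the clamp itself, was at 77.8, 58.7 and 70.3 CPM in tMCAO and 43, 34.9 and 42.8 CPM in sham libraries. The groups did not overlap, and the log2 fold change was 0.66 ± 0.19 (SE) at an adjusted p of 0.0261. Without tMCAO 1, without any 1 of the sham libraries, without tMCAO 3 and sham 1 together, and in DESeq2, Pcna was not called, and its adjusted p ran from 0.00645 to 0.0892. Rfc3, a small subunit of the loader, was at 27.6, 19.4 and 28.8 CPM in tMCAO and 16, 9.51 and 12.2 CPM in sham libraries. Without overlap between the groups, the log2 fold change was 0.89 ± 0.28 (SE) at an adjusted p of 0.0402. The Rfc3 call was lost without tMCAO 1, tMCAO 3 or any 1 of the sham libraries, without tMCAO 3 and sham 1 together, with upper-quartile scaling, and in DESeq2 and limma voom, with adjusted p-values from 0.00989 to 0.119.

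Within the loader, only Rfc3 was called. The large subunit Rfc1 was at 85.7, 92.2 and 104 CPM in tMCAO and 93.6, 87.6 and 73.4 CPM in sham libraries, with overlapping groups. The log2 fold change was 0.03 ± 0.18 (SE) at an adjusted p of 0.931, and its sign turned in 4 alternatives, upper-quartile scaling, without tMCAO 3, without sham 3 and without both tMCAO 3 and sham 1, at -0.09 to -0.04. Rfc2 was at 78.3, 60.9 and 77.8 CPM in tMCAO and 60.3, 52.7 and 58.9 CPM in sham libraries, a log2 fold change of 0.22 ± 0.18 (SE) with an adjusted p of 0.43. Rfc4 was at 45.8, 35.0 and 41.5 CPM in tMCAO and 32.9, 25.8 and 25.2 CPM in sham libraries, a log2 fold change of 0.43 ± 0.21 (SE) with an adjusted p of 0.176. For Rfc2 and Rfc4 every tMCAO library was above every sham library, yet neither passed the threshold. Rfc5 was at 8.37, 9.70 and 1.6 CPM in tMCAO and 2.53, 1.19 and 4.59 CPM in sham libraries. It was high in tMCAO 1 and 2 and within the sham range in tMCAO 3, with a log2 fold change of 1.10 ± 0.60 (SE) at an adjusted p of 0.23, which ran from 0.0466, without tMCAO 3, to 0.533, without tMCAO 2. The 5 loader genes summed to 246, 217 and 253 CPM in tMCAO and 205, 177 and 174 CPM in sham libraries, a ratio of 1.29.

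None of the 3 subunits of replication protein A, which coats single-stranded DNA in replication and in repair, was called. Rpa1 was at 19.2, 20.5 and 22.9 CPM in tMCAO and 11.4, 14.3 and 10.7 CPM in sham libraries, a log2 fold change of 0.66 ± 0.26 (SE) with an adjusted p of 0.101. Rpa2 was at 17.7, 18.3 and 19.2 CPM in tMCAO and 9.70, 13.9 and 11.5 CPM in sham libraries, a log2 fold change of 0.53 ± 0.27 (SE) with an adjusted p of 0.191. Both had groups that did not overlap. Rpa3 was at 26.6, 23.2 and 27.2 CPM in tMCAO and 20.7, 28.9 and 18.7 CPM in sham libraries. Sham 2 was the highest of the 6 libraries for Rpa3, whose log2 fold change of 0.05 ± 0.25 (SE) had an adjusted p of 0.92 and turned negative in 5 alternatives, at -0.13 to -0.02.

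Both genes of Okazaki fragment joining were called. Fen1, the nuclease that trims the flap, was at 33.0, 28.0 and 21.8 CPM in tMCAO and 12.7, 11.5 and 10.7 CPM in sham libraries. Its log2 fold change was 1.12 ± 0.25 (SE) at an adjusted p of 0.00762. Lig1, the ligase that seals the nick, was at 54.7, 36.6 and 37.3 CPM in tMCAO and 11.8, 19.8 and 17.2 CPM in sham libraries. Neither gene's groups overlapped, and the log2 fold change of Lig1 was 1.27 ± 0.26 (SE) at an adjusted p of 0.00497. Together they summed to 87.7, 64.7 and 59.1 CPM in tMCAO and 24.5, 31.3 and 27.9 CPM in sham libraries, a ratio of 2.53.

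Among the genes of deoxynucleotide synthesis, 3 of 5 were called higher and the changes were uneven. Rrm2, the small subunit of ribonucleotide reductase and the subunit that is made in S phase, had 111, 45 and 76 counts in tMCAO and 1, 10 and 6 counts in sham libraries. These correspond to 54.7, 24.3 and 40.5 CPM in tMCAO and 0.422, 3.96 and 2.29 CPM in sham libraries. The lowest tMCAO library was thus far above the highest sham library, with a log2 fold change of 3.99 ± 0.52 (SE), 15.9-fold, at an adjusted p of 0.000926. Because the sham level rests on few counts, the size is uncertain: with single libraries left out the log2 fold change ran from 3.50, without sham 1, to 4.69, without sham 2. Tk1, the cytosolic thymidine kinase of the salvage route, was at 53.2, 32.9 and 32.0 CPM in tMCAO and 5.06, 4.76 and 1.15 CPM in sham libraries. Tk1 had a log2 fold change of 3.30 ± 0.41 (SE), 9.84-fold, at an adjusted p of 0.000315, and again the groups stood well apart. Tyms, thymidylate synthase, averaged 34.9 ± 10.2 CPM in tMCAO and 14.3 ± 1.27 CPM in sham libraries, a log2 fold change of 1.17 ± 0.25 (SE) at an adjusted p of 0.00631.

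Rrm1, the large and catalytic subunit of the reductase, was at 47.3, 36.6 and 25 CPM in tMCAO and 11.4, 17.4 and 24.9 CPM in sham libraries. The lowest tMCAO and the highest sham library nearly met, and the log2 fold change of 0.89 ± 0.30 (SE) had an adjusted p of 0.054, which became 0.0251 without tMCAO 3 and 0.0383 without sham 3. Without sham 1 the log2 fold change of Rrm1 was 0.63 at an adjusted p of 0.204, and without tMCAO 1 it was 0.69 at 0.169. Dut, the dUTP pyrophosphatase that keeps uracil out of DNA, was at 8.37, 5.93 and 1.07 CPM in tMCAO and 0, 6.34 and 1.91 CPM in sham libraries. No shift between the groups could be seen for Dut at this depth, with a log2 fold change of 0.74 ± 0.99 (SE) at an adjusted p of 0.658. Without sham 1 the value for Dut was 0.15 and without sham 2 it was 2.21, with no call in either case. Summed, the 5 genes were at 209, 133 and 124 CPM in tMCAO and 32.5, 45.6 and 44.4 CPM in sham libraries, a ratio of 3.81.

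**Figure D3:**
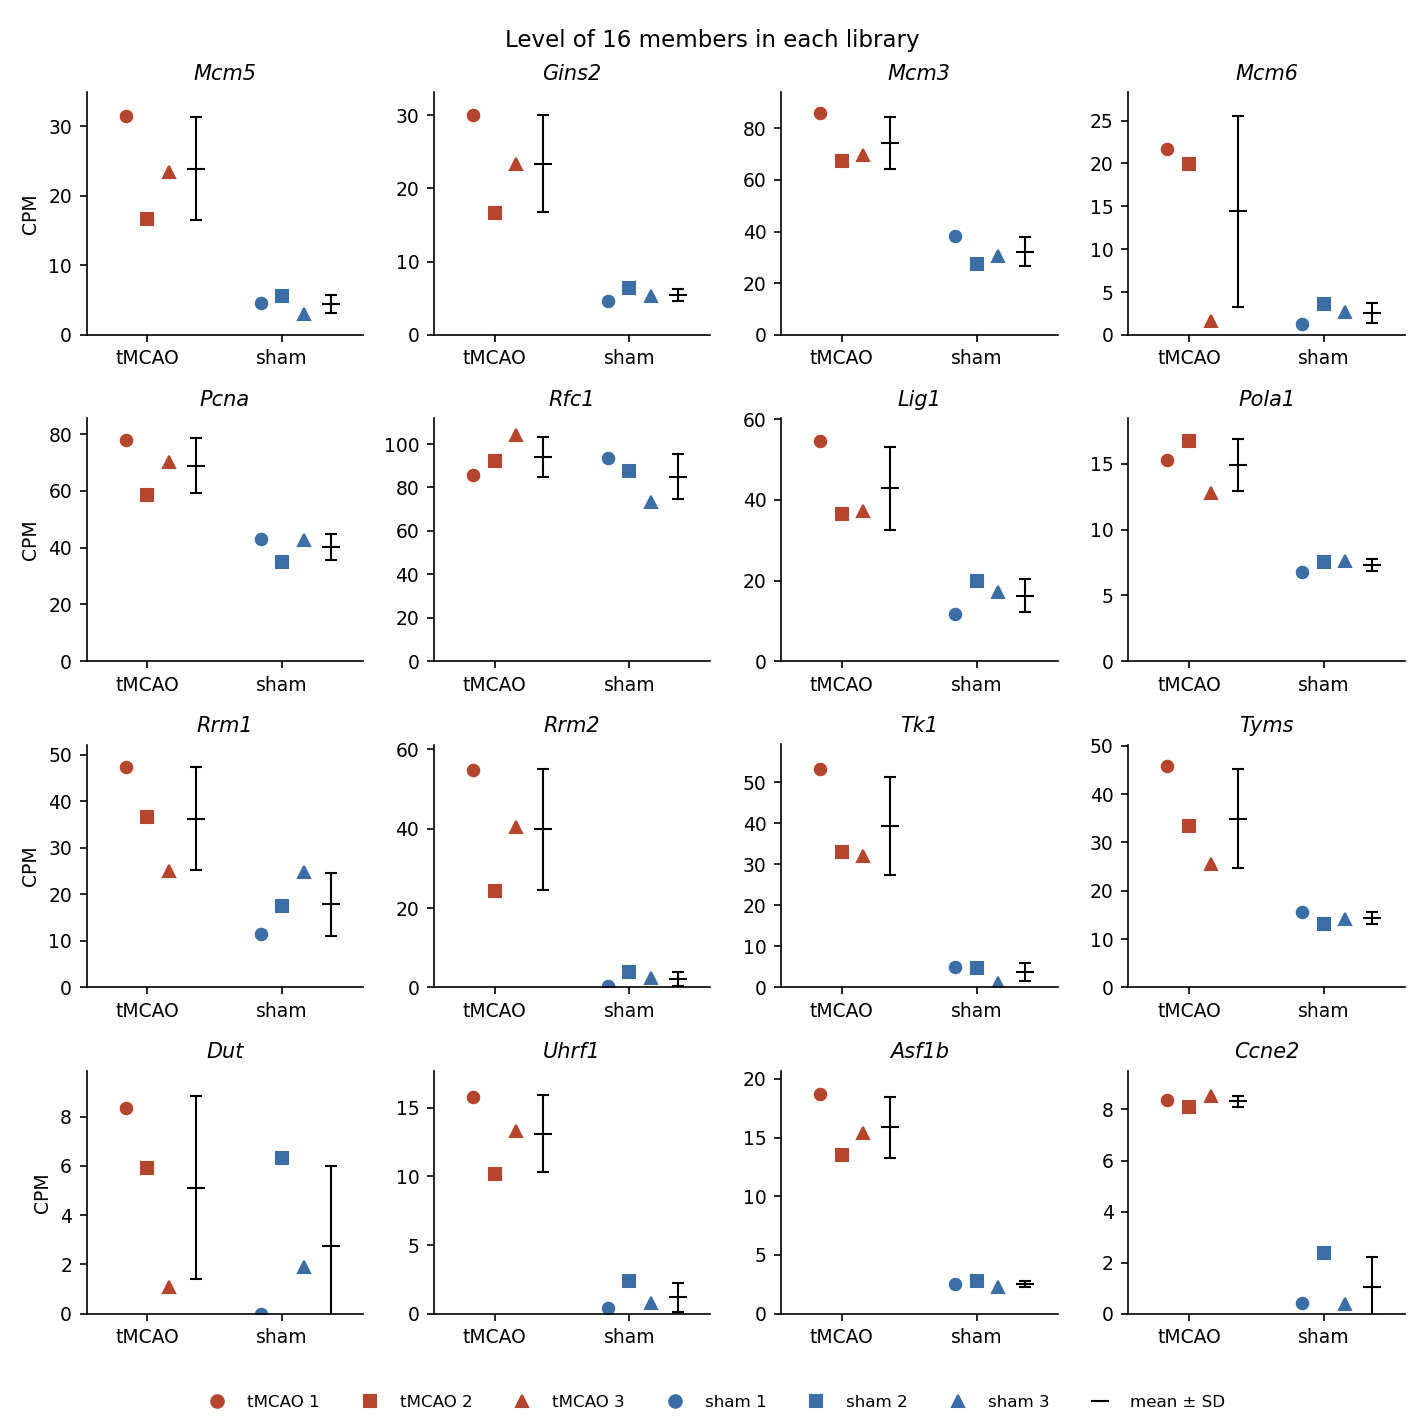
CPM (vertical axes, each starting at 0) of 16 members in each library, with tMCAO libraries in red and sham libraries in blue, a symbol for each replicate number and black bars for the mean ± SD, cut at 0 for Dut and Ccne2 in sham libraries. Rrm2, Tk1, Uhrf1, Asf1b and Ccne2 were near 0 in sham libraries, Rfc1 and Dut overlapped between the groups, and Mcm6 was low in tMCAO 3.

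The chromatin genes had the highest median of the roles. Of 4 genes, 3 were tested and all 3 were called higher, with a median log2 fold change of 3.02, but none of the 3 reached the filter's CPM in any sham library. Uhrf1, which guides the maintenance methyltransferase to newly copied DNA, was at 15.8, 10.2 and 13.3 CPM in tMCAO and 0.422, 2.38 and 0.765 CPM in sham libraries. Its log2 fold change was 3.28 ± 0.51 (SE) at an adjusted p of 0.000926, and with single libraries left out it ran from 2.88, without sham 1, to 4.24, without sham 2. Asf1b, a histone chaperone of dividing cells, was at 18.7, 13.5 and 15.4 CPM in tMCAO and 2.53, 2.77 and 2.29 CPM in sham libraries. Both genes were low in every sham library, and the log2 fold change of Asf1b was 2.51 ± 0.35 (SE) at an adjusted p of 0.000494.

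Chaf1b, the middle subunit of chromatin assembly factor 1, averaged 7.42 ± 1.27 CPM in tMCAO and 0.796 ± 0.378 CPM in sham libraries. This was a log2 fold change of 3.02 ± 0.52 (SE) at an adjusted p of 0.00178, on 2, 1 and 3 counts in sham libraries. Chaf1a, the large subunit of the same complex, had 1, 2 and 1 counts in tMCAO and 4, 1 and 6 counts in sham libraries. It was not tested, and with no filter its adjusted p was 0.565. The group summed to 43.8, 31.3 and 36.2 CPM in tMCAO and 5.48, 5.95 and 6.50 CPM in sham libraries, a ratio of 6.21.

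Of the S-phase entry regulators, Ccne2 alone was tested. Ccne2, a cyclin that activates Cdk2 at the start of S phase, was at 8.37, 8.08 and 8.52 CPM in tMCAO and 0.422, 2.38 and 0.382 CPM in sham libraries. The tMCAO libraries were nearly equal, and all were above the sham libraries. The log2 fold change was 2.78 ± 0.57 (SE) at an adjusted p of 0.005. With single libraries left out it ran from 2.35, without sham 3, to 4.11, without sham 2, which held 6 of the sham counts beside 1 in each of the others. Its relative Ccne1 had 6, 1 and 1 counts in tMCAO and 0, 1 and 1 counts in sham libraries, a ratio of 5.21 with an exact 95% counting interval of 1.04 to 50.4. E2f1, an activating E2F factor, had 5, 1 and 2 counts in tMCAO and 2, 1 and 1 counts in sham libraries. Neither was called with no filter, at adjusted p-values of 0.295 for Ccne1 and 0.521 for E2f1.

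**Figure D4:**
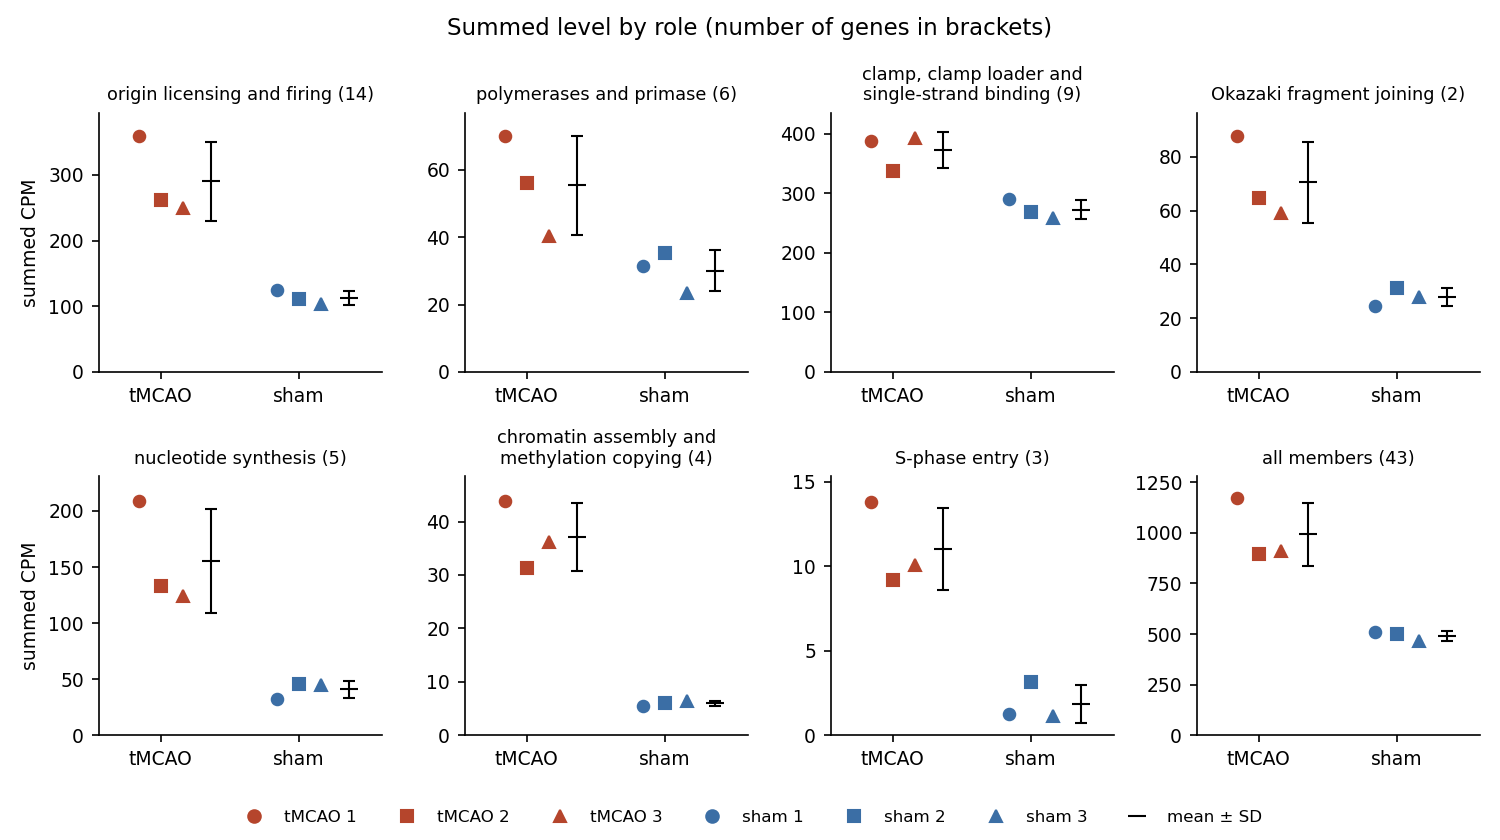
Summed CPM (vertical axes, each starting at 0) of the members of each role in each library, with tMCAO libraries in red, sham libraries in blue, a symbol for each replicate number and black bars for the mean ± SD. In every panel the 3 tMCAO libraries lie above the 3 sham libraries, by a ratio of 1.37 for the clamp group and 6.21 for the chromatin group.

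All 43 genes together summed to 1171, 895 and 912 CPM in tMCAO and 509, 501 and 464 CPM in sham libraries, means of 992 ± 155 and 491 ± 24.1 CPM and a ratio of 2.02. The groups did not overlap for any of the 7 role sums, each with an exact two-sided permutation p of 0.1. The sum of 5 genes of the G2 phase and mitosis that are not members, Mki67, Top2a, Birc5, Ccnb1 and Cdk1, was 363, 239 and 191 CPM in tMCAO and 14.3, 21.8 and 18.7 CPM in sham libraries, a ratio of 14.4. These 5 genes were picked by hand and not by a rule, and Top2a is also in the list of other replication and nucleotide genes below. The sum of the 43 genes is over a whole list, so the ratios are of unlike sets. The difference between this ratio and that of the replication genes was not tested.

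Ratios of partner genes within a library do not depend on how libraries are scaled, and 7 were compared, each as the log2 ratio of counts with 0.5 added to both. They were not corrected for gene length, so only their difference between the groups is read. Rrm2 over Rrm1 was at 0.21, -0.59 and 0.69 in tMCAO and -4.20, -2.08 and -3.33 in sham libraries, a difference of 3.31. The same small subunit over Rrm2b, its p53-controlled counterpart used outside S phase, was at 2.02, 1.46 and 1.70 in tMCAO and -4.64, -1.87 and -2.08 in sham libraries, a difference of 4.59. Rrm2b itself was at 13.3, 8.62 and 12.2 CPM in tMCAO and 15.6, 15.1 and 10.3 CPM in sham libraries, with a log2 fold change of -0.38 ± 0.31 (SE) at an adjusted p of 0.437. The groups overlapped for Rrm2b. Tk1 over Tk2, the mitochondrial thymidine kinase, was at 1.29, 0.60 and 2.53 in tMCAO and -0.31, -2.15 and -3.03 in sham libraries, a difference of 3.30. Tk2 had a log2 fold change of 0.17 ± 0.59 (SE) at an adjusted p of 0.877.

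For these 3 ratios the groups did not overlap, with an exact two-sided permutation p of 0.1 each and 0.23 after Benjamini-Hochberg adjustment over the 7. The other 4 overlapped between the groups. Lig1 over Lig3, the ligase of base excision and mitochondrial repair, averaged 1.35 ± 0.58 in tMCAO and 0.53 ± 0.30 in sham libraries, a difference of 0.82 with an exact permutation p of 0.2 (adjusted 0.35, 3 libraries a group). Ccne2 over Ccne1 differed by 1.52 and Prim1 over Prim2 by 0.46, each with an exact permutation p of 0.3 (adjusted 0.35). Cdt1 over Gmnn, which encodes the protein that binds and blocks Cdt1, averaged -2.24 ± 1.53 in tMCAO and -1.95 ± 1.04 in sham libraries. That difference of -0.29 had an exact permutation p of 0.9 and changed sign without tMCAO 3, at 0.54, and without sham 3, at 0.28.

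**Figure D5:**
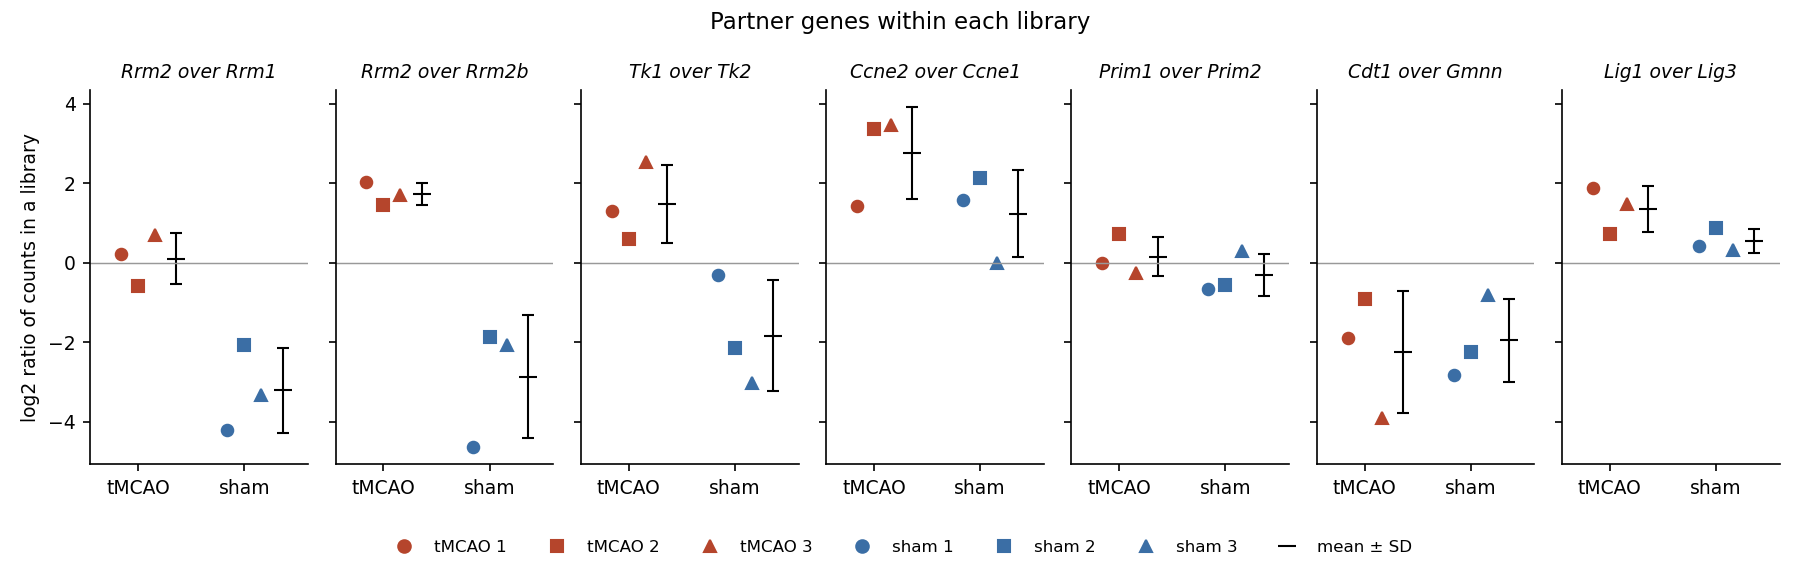
Log2 ratio of counts of partner genes within each library (vertical axis, shared by the 7 panels), with tMCAO libraries in red, sham libraries in blue, a symbol for each replicate number and black bars for the mean ± SD. Rrm2 over Rrm1, Rrm2 over Rrm2b and Tk1 over Tk2 did not overlap between the groups, and the other 4 ratios did.

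Of 95 other genes of replication and nucleotide synthesis, all of them in the table, 66 were tested, 11 (16.7%) were called higher and 0 lower, with a median log2 fold change of 0.18 and a range of -1.0 to 4.53. At an unadjusted p under 0.05, 14 were higher and 2 lower. By role, 1 of 9 tested origin genes, 2 of 14 polymerase and fork genes, 3 of 26 nucleotide genes, 2 of 8 chromatin genes and 3 of 9 S-phase regulators were called higher. The share of 16.7% stands beside 9.17% over everything tested. Among tested genes of the annotation alone, 974 of 8528 were called higher. The difference of the other list from the 43 genes was not tested. With no filter 23 were called higher, where 6.47% of everything tested was, and without tMCAO 3 the count was 17.

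Top2a, the topoisomerase that untangles copied chromosomes, was at 164, 119.6 and 79.9 CPM in tMCAO and 5.48, 9.12 and 5.35 CPM in sham libraries, a log2 fold change of 4.04 ± 0.30 (SE) at an adjusted p of 1.18e-05. Clspn, which signals stalled forks to the checkpoint, had 33, 17 and 16 counts in tMCAO and 0, 3 and 0 counts in sham libraries, a ratio of 28.7 with an exact 95% counting interval of 9.39 to 143 and an adjusted p of 0.00106. Fbxo5, an inhibitor of the anaphase-promoting complex, was at 17.7, 8.08 and 10.7 CPM in tMCAO and 0.422, 1.98 and 0.765 CPM in sham libraries. The Fbxo5 log2 fold change of 3.33 ± 0.54 (SE), at an adjusted p of 0.00119, was 2.96 without sham 1 and 4.13 without sham 2. Clspn and Fbxo5, like Rrm2 and Uhrf1, had 0 or 1 count in at least 1 sham library.

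Gmnn was at 28.1, 21.6 and 19.7 CPM in tMCAO and 7.17, 6.34 and 6.12 CPM in sham libraries, a log2 fold change of 1.69 ± 0.28 (SE) at an adjusted p of 0.00131. Dck, the deoxycytidine kinase of nucleotide salvage, was at 25.6, 21.0 and 26.1 CPM in tMCAO and 5.48, 7.93 and 8.41 CPM in sham libraries, a log2 fold change of 1.61 ± 0.28 (SE) at an adjusted p of 0.00211. Dnmt1, the maintenance DNA methyltransferase that Uhrf1 recruits, was at 50.2, 41.0 and 38.9 CPM in tMCAO and 21.9, 19 and 19.9 CPM in sham libraries, a log2 fold change of 0.98 ± 0.20 (SE) at an adjusted p of 0.00575. In all 3 genes the libraries of each group lay close together and the groups did not overlap. The other called genes were Mthfd2, Samhd1, Ssrp1, E2f2 and Cdk2, with log2 fold changes of 0.66 to 1.78, and of these E2f2 alone kept its call in all 14 alternatives. Pfas, an enzyme of purine synthesis, had the lowest value of the 66, a log2 fold change of -1.0 ± 0.35 (SE) at an adjusted p of 0.0615, and was called lower with upper-quartile scaling only.

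The 3 tMCAO libraries were not alike for the 43 genes, a pattern chosen after their values were seen. The level was highest in tMCAO 1 for 32 of the 43 (74.4%) and for 25 of the 33 tested members (75.8%), where tMCAO 1 was highest for 37.8% of all tested genes and loci and for 32.6% of those called higher. The level in tMCAO 3 was under 0.25 of the lower of the other two tMCAO libraries for Rfc5 and Dut among the 33 tested members (6.06%) and for 3.05% of all tested genes and loci. Over all 43 members, low-count genes that were not tested included, this held for 6 (14%), the others being Cdt1, Mcm6, Pold1 and Pole. Leaving out tMCAO 1 left 14 members called higher with a median log2 fold change of 0.91, and leaving out tMCAO 3 gave 23 with a median of 1.26.

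Markers of other cells moved between these libraries too, and their part in the results was not tested. Monocyte markers summed to 216, 87.8 and 98.5 CPM in tMCAO and 98.7, 111 and 94.5 CPM in sham libraries. Among the tMCAO libraries, tMCAO 1, where the replication genes were highest, held the highest sums of monocyte, neutrophil and microglia markers. Of its monocyte sum, 106 CPM came from Chil3, which was not called. Of the 6 tested monocyte markers Ccr2 and Plac8 were called higher. Ccr2 was at 8.86, 10.2 and 11.7 CPM in tMCAO libraries 1 to 3, so lowest in tMCAO 1. Plac8 was at 32.5, 16.7 and 18.6 CPM, so highest there. Neutrophil markers summed to 1805, 414 and 959 CPM in tMCAO and 1801, 1797 and 2279.6 CPM in sham libraries, and of 8 tested 1 was called lower and 0 higher. Lymphocyte markers were at 33.9 ± 7.02 CPM in tMCAO and 42.8 ± 4.16 CPM in sham libraries over the 9 of 10 in the table. Most of this was Cd79b, at means of 28.0 and 29.9 CPM, which was tested and not called. Cd79a had 0, 1 and 0 counts in tMCAO and 10, 13 and 4 counts in sham libraries. With no filter Cd79a and Nkg7 were called lower, at adjusted p-values of 0.00103 and 0.0314, and 0 lymphocyte markers higher. Ms4a1 was at 0 in every tMCAO library and had 1, 5 and 0 counts in sham libraries. The groups overlapped for all of these sums.

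Summed markers of astrocytes and of red cells were lower in every tMCAO library than in any sham library, each with an exact two-sided permutation p of 0.1 for the sum. Astrocyte and neural precursor markers summed to 18.1 to 31.3 CPM in tMCAO and 81.1 to 321 CPM in sham libraries, and both tested markers were called lower. Dcx, a marker of young neurons, was at 0 in every tMCAO library and had 1, 0 and 0 counts in sham libraries, too few to compare. Erythroid markers summed to 215 to 379.7 CPM in tMCAO and 955 to 6040.5 CPM in sham libraries, with 0 of 3 tested called. Oligodendrocyte and precursor markers summed to 86.7 to 285 CPM in tMCAO and 142 to 973 CPM in sham libraries, with overlap, and 1 of 4 tested called lower. In that list Olig1 was at 0 in every tMCAO library and had 1, 3 and 0 counts in sham libraries. Cspg4, not tested, had 10, 9 and 3 counts in tMCAO and 2, 1 and 0 counts in sham libraries. It was called higher with no filter, at an adjusted p of 0.00465. Endothelial and pericyte markers were at 118 ± 59.7 CPM in tMCAO and 107 ± 19.8 CPM in sham libraries, with 0 of 5 tested called.

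Some members share exon sequence with a neighbour. In GENCODE M21 annotation, 15 of the 43 overlap an exon of another gene, 14 of them on the opposite strand, and 7 of these were called: Ccne2, Cdc45, Fen1, Gins2, Lig1, Mcm7 and Tk1. Among these called members, the longest stretch shared with a neighbour was 2758 bases for Gins2, 1908 for Fen1, and 52 to 247 for the rest. The sources used here do not state whether strand was used in counting, and the values of these members are uncertain to that extent. Of 6 tested partners of called members, 2 were called higher, Gse1 beside Gins2 with a log2 fold change of 0.91 (adjusted p 0.0368) and Cops6 beside Mcm7 with 0.91 (adjusted p 0.0062). The pseudogene Pcna-ps2 had 1 count in tMCAO and 1 count in sham libraries.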

How the data were processed

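Microglial RNA was sequenced as nanopore cDNA in 6 libraries. Per the file headers, the authors deposited raw counts of reads for each gene and, in further columns, CPM scaled by library totals. CPM recomputed from those counts matched the deposited CPM to within 4.87e-06. Per the submitters' processing notes, minimap2 was used. The sources used here do not state the genome build, annotation, counting rule or use of strand. Of 38219 lines, 12 without values were left out, and 6471 of the 38207 genes and loci had no count.

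Counts were tested with edgeR 4.0.16 in R 4.3.3: filterByExpr (minimum count 10, minimum total 15), TMM scaling (factors 0.92 to 1.07), robust quasi-likelihood fits with the group as the only term, and Benjamini-Hochberg adjustment over 13127 genes and loci. The SE is the absolute log2 fold change divided by the square root of F. The biological coefficient of variation was 22.6%. Each pool is 1 replicate, and p-values rest on the spread between pools. Counting intervals pool the libraries of a group and take reads as independent, so they leave out the spread between pools. PCR copies without molecular identifiers need not be separate molecules, so even the counting error may be understated. Only the main edgeR fit was checked on simulated data. Alternatives were other scalings, no filter, DESeq2 1.42.0, limma voom (3.58.1), a replicate block, each library left out, and tMCAO 3 with sham 1 left out. Permutation tests and intervals used SciPy 1.17.1. Motifs were searched in RefSeq windows (GRCm38.p6).

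The members, the list of 95 other genes, the marker lists and the summed genes of the G2 phase and mitosis were chosen with earlier results of these data known. Values in every library are given for the 2 tested members of each role with the smallest p, for members not called or not tested, and, of the other list, for the 6 called genes with the smallest p. Other members are given by means, ranges or counts. The value of 1 marker gene is not reported here.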

Additional observations from a re-analysis of the deposited data

How the results depend on the processing

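Over 14 alternatives, 14 to 25 members were called higher and 0 lower, and the members' median log2 fold change was 0.91 to 1.26. Of the 18 called members, 14 kept the call in all 14 alternatives, and Mcm4, Pola1, Pcna and Rfc3 lost it in 7 to 10 of them, the replicate block included. Of the 15 tested members not called, 6 were called in at least 1 alternative: Orc6, Mcm2, Gins1, Prim1, Rfc5 and Rrm1. Rfc1 turned negative with upper-quartile scaling (-0.04), without tMCAO 3 and sham 1 (-0.04) and, over single libraries left out, ran from -0.09 to 0.13. Rpa3 did so too, at -0.02 with upper-quartile scaling, -0.13 without tMCAO 3 and sham 1, and -0.11 to 0.29 over single libraries left out. Other replication and nucleotide genes called higher numbered 23 with no filter on low counts and 9 to 17 with a library left out, and 1 was called lower with upper-quartile scaling. Over all genes, 2380 were called, 4039 with no filter, 1254 to 2590 with a library left out and 1573 without tMCAO 3 and sham 1. Scaling by library totals moved the median of all genes by 0.11 (log2) and upper-quartile scaling by -0.07, and 50.6%, 63.2% and 42.2% of calls were higher with TMM, library totals and upper-quartile scaling. The causes were not tested.

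With the replicate number as a block, 14 members and 9 other replication and nucleotide genes were called higher among 1662 calls in all. Libraries with the same number did not deviate together (correlations of -0.208, 0.023 and -0.175). Deviations from a group mean are tied to one another within a group, so these values cannot settle whether the numbers pair the libraries. The 10 members that were not tested had too few counts for the filter.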
